A study of Rattus norvegicus with 4 samples.

Results

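The glutathione, sulfo- and glucuronosyl-transferases were followed in rat liver 12 h after the common bile duct was tied. They were chosen by name, as the probes whose annotated symbols all begin with Gsta, Gstm, Gstp, Gstt, Mgst, Sult or Ugt. This gave 12 of the 982 gene symbols named on the array, measured by 14 of its 1936 probes: 10 for glutathione transferases, 4 for sulfotransferases and 0 for UDP-glucuronosyltransferases. Male Sprague-Dawley rats of 250 to 300 g, with no transgene or drug named in the labels, underwent either ligation of the duct or a sham operation that exposed it without tying it. Both groups had ether anaesthesia and free access to food and water. RNA of the right lateral liver lobe was mixed from 3 rats per group, so that no value belongs to one animal. A ligation and a sham mixture were hybridised together on each of 4 two-colour cDNA arrays, with ligation RNA in Cy5 on arrays 1 and 3 and in Cy3 on arrays 2 and 4.

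Glutathione transferases join the tripeptide glutathione to electrophilic compounds. The alpha, mu, pi and theta classes (Gsta, Gstm, Gstp, Gstt) are soluble, and Mgst1 is a separate protein of microsomal and outer mitochondrial membranes. Alpha-class subunits of the hepatocyte also bind bilirubin and bile acids without transforming them, for which they were once called ligandin. The Sult2a enzymes transfer a sulfo group to hydroxysteroids and bile acids, which makes bile acids more water-soluble and easier to excrete. In cholestasis, when bile does not leave the liver, these reactions act on compounds that would otherwise leave with bile.

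The table read here gives 1 log ratio per probe and array, but does not state which group is the numerator. The labels list sham RNA as channel 1 and ligation RNA as channel 2, and ligation over sham is therefore the likely direction and the one used here. Arrays with the same dye order correlated at Pearson r = 0.93 (arrays 1 and 3) and 0.94 (arrays 2 and 4) across probes, whereas the 4 pairs of opposite dye order correlated between -0.45 and -0.28. Values below are log2 ratios relative to the median of each array, taking the deposited logarithms as base 2. A linear model gave each feature a ligation effect and a dye term, which is the part of the ratio that turns with the dyes (the mean of arrays 1 and 3 minus that of arrays 2 and 4, divided by 2). A feature's residual spread therefore comes only from arrays of the same dye order, with 2 degrees of freedom. The SE of an effect draws that spread toward a value pooled over all features, with 10.4 prior degrees of freedom. It thus rests mostly on the pooled value. Fits without 1 array leave a single array in 1 dye order. Without array 2 or array 4 every member had the same SE of 0.1146, so calls there follow only the size of the effect. The labels do not say whether the arrays are repeat hybridisations of the same mixtures. If they are, the SE and p-values measure spread between hybridisations and not between rats. If the table were Cy5 over Cy3, the dye term would be the ligation effect. No intensity was used, so the level of a transcript, its signal over background and the presence of liver markers were not analysed here. In RNA of whole tissue, fewer cells of a type and less RNA per cell cannot be told apart.

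The promoters of the genes named by the 4 Sult2a probes share a sequence. Read as ligation over sham, 3 of these probes had the lowest values of the members, and probe 122 was at -0.25. Read as Cy5 over Cy3, the 4 Sult2a probes lay between 0.39 and 0.85. Whether the sequence bears on these values was not tested. The windows printed here run from 250 bases before to 50 bases after the annotated gene start, in RefSeq's assembly GRCr8. In the first 3, capitals mark GGGTCA followed directly by TGAACT, an inverted repeat of nuclear receptor half-sites with no spacer. An element of this kind in the rat Sult2a1 promoter is known to bind receptors that respond to bile acids and drugs. In Gstp1 capitals mark the AP-1 motif TGACTCA, and in Gsta2 the single half-site TGAACT.

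Sult2a2 promoter, chr1:85104483-85104782, minus strand: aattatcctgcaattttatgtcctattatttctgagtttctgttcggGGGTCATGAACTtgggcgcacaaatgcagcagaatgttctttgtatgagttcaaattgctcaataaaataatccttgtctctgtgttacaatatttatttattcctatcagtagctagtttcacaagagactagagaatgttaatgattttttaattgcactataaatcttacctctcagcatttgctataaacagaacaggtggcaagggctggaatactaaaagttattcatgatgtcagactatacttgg
Sult2a1 promoter, chr1:84638898-84639197, minus strand: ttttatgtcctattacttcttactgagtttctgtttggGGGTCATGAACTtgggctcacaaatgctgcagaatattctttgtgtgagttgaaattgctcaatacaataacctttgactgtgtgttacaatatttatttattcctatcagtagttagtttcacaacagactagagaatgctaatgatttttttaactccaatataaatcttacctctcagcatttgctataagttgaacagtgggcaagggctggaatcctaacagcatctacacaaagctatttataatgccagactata
Sult2a6 promoter, chr1:84097759-84098058, minus strand: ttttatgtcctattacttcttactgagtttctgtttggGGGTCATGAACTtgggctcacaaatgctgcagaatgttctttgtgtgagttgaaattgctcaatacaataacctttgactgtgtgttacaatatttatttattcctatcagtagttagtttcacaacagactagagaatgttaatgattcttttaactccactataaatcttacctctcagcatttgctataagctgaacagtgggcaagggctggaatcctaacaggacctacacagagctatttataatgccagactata
Gstp1 promoter, chr1:210769656-210769955, minus strand: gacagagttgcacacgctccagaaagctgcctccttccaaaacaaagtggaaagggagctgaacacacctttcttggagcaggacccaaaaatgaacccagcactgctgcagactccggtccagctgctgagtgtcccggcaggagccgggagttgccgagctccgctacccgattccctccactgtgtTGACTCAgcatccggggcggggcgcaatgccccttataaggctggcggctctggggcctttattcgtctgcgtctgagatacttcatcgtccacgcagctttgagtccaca
Gsta2 promoter, chr8:88077043-88077342, minus strand: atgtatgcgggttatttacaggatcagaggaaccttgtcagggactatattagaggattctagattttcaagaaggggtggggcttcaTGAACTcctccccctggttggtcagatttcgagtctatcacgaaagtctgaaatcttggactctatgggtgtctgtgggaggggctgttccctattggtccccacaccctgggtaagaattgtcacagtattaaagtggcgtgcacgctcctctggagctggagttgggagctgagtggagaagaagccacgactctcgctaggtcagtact

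Promoters of 10 genes named by the probes were found in the RefSeq table. The whole repeat was present in 3 of them, Sult2a1, Sult2a2 and Sult2a6, and in 8 of all 33469 promoters of that length (0.0239%), searched on both strands. It began 212 bases before the start in Sult2a1 and Sult2a6 and 203 bases before it in Sult2a2. The Sult2a1 and Sult2a6 windows were 97.3% identical over their alignment, and Sult2a2 was 79.9% identical to Sult2a1. The half-site TGAACT, which is contained in the repeat, lay in 6 of the 10 windows against 14.5% of all promoters. These were the 3 related Sult2a windows already counted for the repeat, and Gstp3, Gstm5 and Gsta2. TGACTCA lay in Gstp1 and Gstm5, against 4.63% of all promoters. The core of the antioxidant response element, TGACNNNGC, lay in 4 (Gstp1, Gstm5, Gstm7 and Gsta2) against 12.1%, and in Gstp1 it overlaps TGACTCA. These matches describe the letters only, and binding was not measured.

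The question of the comparison was which of these conjugation transcripts differed between obstructed and free bile flow. The Sult2a group, Gstm2, Gsta2 and 1 of 2 Gstp2/Gstp1 probes were lower in the ligated mixture. Mgst1 and Gstm5 were higher relative to the array median, but at 0.02 and 0.0061 without centring. Gstt1 was lower as the average of 2 probes, of which only 1 passed on its own. Averaging probes that carry the same single symbol left 13 features, of which 8 fell, 2 rose and 3 did not pass (limma, Benjamini-Hochberg adjusted p below 0.05). Over all 1174 features tested, 28.6% passed, 16.6% in the lower and 12.0% in the higher direction. The median effect was -0.27 over the 13 features and -0.01 (-0.013) over all features. The effects ran from -1.19 for a probe shared by Sult2a2 and Sult2a1 to 0.40 for Mgst1, with SE from 0.07 to 0.11. Read as Cy5 over Cy3, 9 of the 13 were called higher and 1, Gstp3, lower, where 45.4% of all features were called higher and 33.4% lower.

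**Figure D1:**
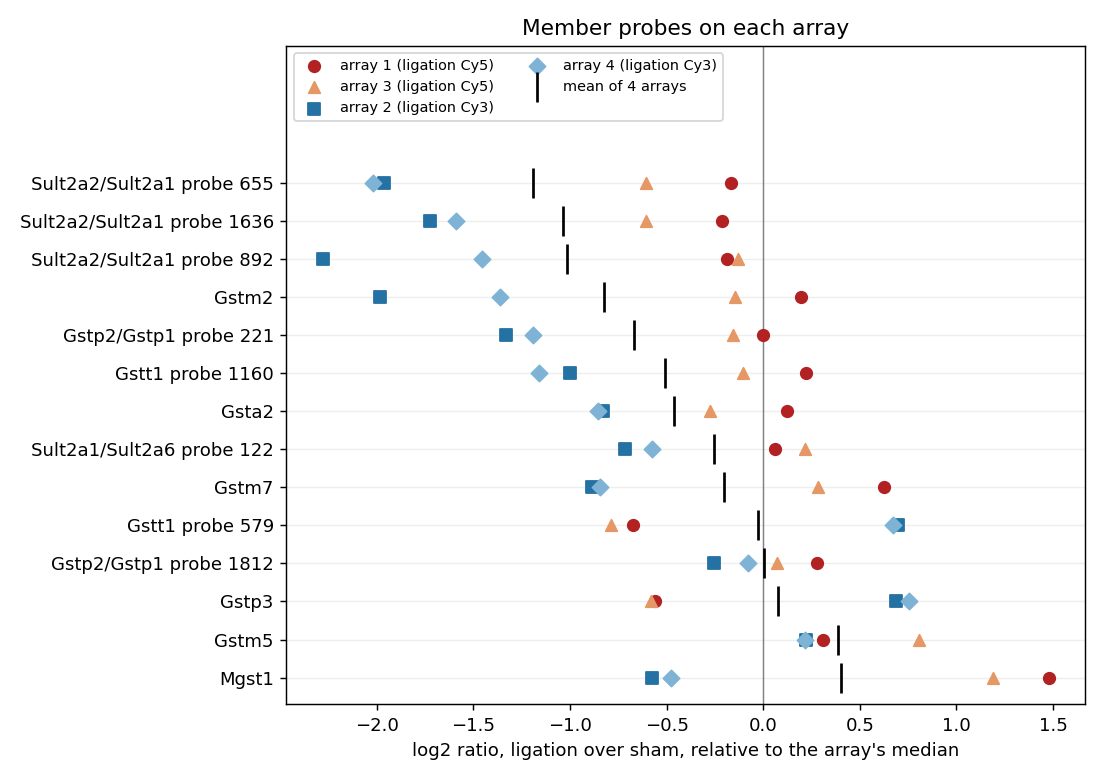
Log2 ratio of ligation over sham, relative to the median of the array, for each of the 14 member probes (rows) on each of the 4 arrays (points), with the mean of the arrays as a vertical bar. Circles and triangles are arrays with ligation RNA in Cy5, squares and diamonds those with it in Cy3. The 3 Sult2a2/Sult2a1 probes lie below 0 on every array, Gstm5 above 0 on every array, and in most rows the arrays separate by dye.

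Among the sulfotransferases, probe 655, annotated to Sult2a2 and Sult2a1 together, stood at -0.17 on array 1, -1.96 on array 2, -0.61 on array 3 and -2.02 on array 4. It was below 0 on all 4 arrays, and further below where the ligation RNA carried Cy3. Its effect was -1.19 ± 0.08 (SE, 4 arrays), 2.28-fold lower (adjusted p = 3.55e-07), which is rank 12 from the lowest of 1174 features. Read as Cy5 over Cy3 it was at 0.80 (adjusted p = 5.77e-06), at or above 94.63% of features.

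Probe 1636, with the same annotation, gave -0.21, -1.72, -0.61 and -1.59 on arrays 1 to 4, and probe 892 gave -0.19, -2.28, -0.13 and -1.46. Both were therefore below 0 on every array, with the same separation by dye. The effects were -1.03 ± 0.08 (adjusted p = 1.09e-06) for probe 1636 and -1.01 ± 0.11 (adjusted p = 1.5e-05) for probe 892, about 2-fold lower in each. The probes carry the same 2 symbols, so Sult2a2 and Sult2a1 cannot be told apart with them, and the sequences of the probes were not analysed here. Between these probes the mean difference was -0.18 for probe 655 minus probe 892 (SD 0.42 over 4 arrays), -0.15 for probe 655 minus probe 1636 (SD 0.22) and -0.02 (-0.021) for probe 1636 minus probe 892 (SD 0.43).

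Probe 122, annotated to Sult2a1 and Sult2a6, a further hydroxysteroid sulfotransferase of the same chromosome 1 cluster, was less far from 0. It stood at 0.06 (0.063), -0.72, 0.21 and -0.57 on arrays 1 to 4, above 0 with ligation in Cy5 and below 0 with ligation in Cy3. The effect was -0.25 ± 0.07 (adjusted p = 0.0213), and it did not pass when array 1 (adjusted p = 0.0799), array 2 (adjusted p = 0.183) or array 4 (adjusted p = 0.0532) was left out. Probes 655, 1636 and 892 each lay below it on all 4 arrays, with mean differences of -0.94, -0.78 and -0.76. For each of these differences the exact sign-flip test gave p = 0.125, the smallest it can give with 4 arrays, and 0.25 after adjustment over the 8 probe pairs compared.

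Gstm2, a mu-class subunit, had the lowest value of the glutathione transferases when read as ligation over sham, and at 0.85 the highest after Mgst1 when read as Cy5 over Cy3. It stood at 0.19 on array 1, -1.99 on array 2, -0.15 on array 3 and -1.36 on array 4. The arrays with ligation in Cy5 straddled 0 (mean 0.02 (0.023)) and the other pair lay far below it (mean -1.67). The effect was -0.82 ± 0.10, 1.77-fold lower (adjusted p = 4.44e-05). It ranged from -0.98 to -0.67 when 1 array was left out at a time.

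Gstm7 and Gstm5 are further mu-class genes. Gstm7 stood at 0.62, -0.89, 0.29 and -0.84, a sign that turned with the dye, and its effect of -0.21 ± 0.08 did not pass (-0.205, adjusted p = 0.0728). It passed without array 1 (-0.29, adjusted p = 0.0247) and with quantile normalization (-0.24, adjusted p = 0.0207). Gstm5 stood at 0.31, 0.22, 0.81 and 0.21, above 0 on every array, with array 3 well above the others. Its effect was 0.39 ± 0.09 (adjusted p = 0.00428), and 0.26 without array 3 (adjusted p = 0.0348).

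Gsta2, the alpha-class subunit, gave 0.12, -0.83, -0.27 and -0.85 on arrays 1 to 4. It was below 0 on 3 arrays and slightly above on array 1. The effect was -0.46 ± 0.08, 1.38-fold lower (adjusted p = 0.000864), and lay between -0.56 and -0.36 with 1 array left out. The single Gsta2 probe may also bind other alpha-class transcripts, as any of these cDNA probes may bind close relatives, which was not tested.

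The pi class was measured by 3 probes that did not give 1 answer. Gstp1, the placental form, is a textbook marker of preneoplastic foci in rat liver. RefSeq lists Gstp2 as a synonym of Gstp1, so the probes annotated to both names may have 1 target. Probe 221 gave -0.0021, -1.33, -0.16 and -1.19, and an effect of -0.67 ± 0.07 (adjusted p = 1.83e-05). Probe 1812, with the same annotation, gave 0.28, -0.25, 0.07 (0.070) and -0.08 (-0.078), and an effect of 0.0038 ± 0.08 that did not pass (adjusted p = 0.98). Probe 221 was the lower of the pair on all 4 arrays, by -0.67 ± 0.49 (SD, exact sign-flip test, two-sided p = 0.125). Gstp3, a related gene, gave -0.56, 0.69, -0.58 and 0.75. Its sign turned with the dye, opposite to most members, and its effect of 0.08 (0.075) ± 0.07 did not pass (adjusted p = 0.525).

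Gstt1, the theta-class enzyme, had 2 probes with opposite patterns over the arrays. Probe 1160 gave 0.22, -0.998, -0.10 and -1.16, and probe 579 gave -0.67, 0.70, -0.79 and 0.67. The first was lowest with ligation in Cy3 and the second with ligation in Cy5. Fitted on its own among all single probes, probe 1160 was at -0.51 ± 0.09 (adjusted p = 0.000378) and probe 579 at -0.02 (-0.025) ± 0.08 (adjusted p = 0.90). Their average fell by 0.27 ± 0.08 (adjusted p = 0.0171), a call lost without array 3 (adjusted p = 0.0792), without array 4 (0.13) and with centring by print block (0.0537). Probe 1160 minus probe 579 was above 0 on arrays 1 and 3 and below 0 on arrays 2 and 4 (mean -0.49, SD 1.48, exact sign-flip p = 0.5).

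Mgst1, the membrane-bound transferase, was the highest member at 1.48 on array 1, -0.58 on array 2, 1.19 on array 3 and -0.48 on array 4. It was the highest of the 14 probes with ligation in Cy5 and below 0 with ligation in Cy3. The effect was 0.40 ± 0.08, 1.32-fold higher (adjusted p = 0.0015), and lay between 0.33 and 0.48 with 1 array left out. Its dye term of 0.93 was above that of 99.57% of features or equal to it.

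**Figure D2:**
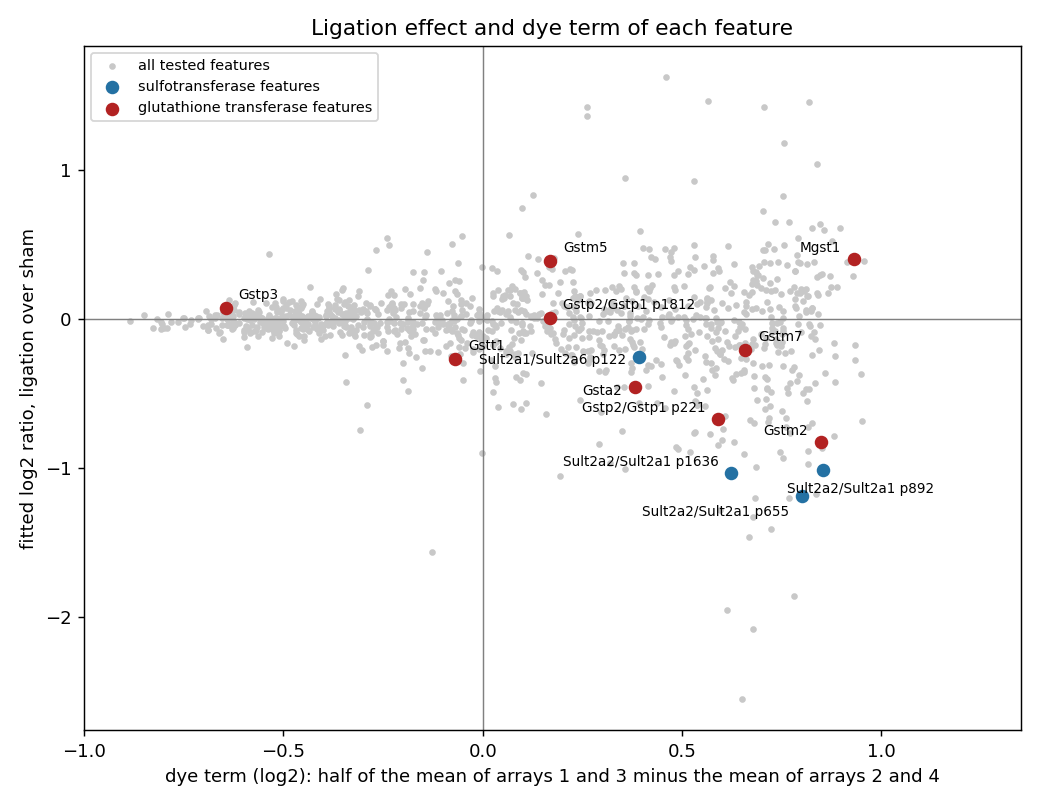
Fitted log2 ratio of ligation over sham (vertical) against the dye term (horizontal, log2) for all 1174 features (grey) and the 13 member features (blue sulfotransferases, red glutathione transferases, p followed by the probe number). Of the members, 11 lie right of 0 in dye term, and the spread of the effects widens from left to right.

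Sign and dye were linked across the members. On all 4 arrays, 4 probes were below 0 (the 3 Sult2a2/Sult2a1 probes and probe 221) and 1 above 0 (Gstm5), and 9 had mixed signs. Of all 1648 probes without control spots, 7.1% were below 0 and 5.04% above 0 on every array. In the values as deposited, before any centring, 9 of the 14 were below 0 on all 4 arrays, against 31.1% of all probes. Those 9 were all 4 Sult2a probes, Gstm2, Gsta2, Gstm7, probe 1160 of Gstt1 and probe 221.

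The share of features that passed rose with the dye term. Among the 294 features with the lowest dye terms (up to -0.32) the SD of the effects was 0.08 (0.077) and 1.7% passed, and among the 294 with the highest (from 0.54) it was 0.51 and 53.1% passed. Gstp3 lay in the first of these sets and did not pass. The second held 7 members, of which 6 passed. Among the 587 features with a dye term of 0.10 or above 9 of 11 members passed, against 46.7% of all features there. The dye term has no stated source, and its part in the members' calls was not tested. Without a dye term in the model no feature passed in limma, of the members or of all 1174, and 3 members and 74 features had an unadjusted p under 0.05.

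The 2 higher calls depended on the zero point. Values as deposited had a median of -0.39 over all features, and on that scale Mgst1 was at 0.02 (0.023, adjusted p = 0.808) and Gstm5 at 0.0061 (adjusted p = 0.966). On that scale 82.2% of all features were called lower, and so were 11 of the 13 members, which is near that share. They were the 8 members called lower with centring and Gstm7, Gstp3 and probe 1812. Centring instead on the 412 probes with the largest dye terms was an alternative added after seeing these data. There Mgst1 was at 0.48 and Gstm5 at 0.46. Of the lower members, Gstt1 (-0.19, adjusted p = 0.146) and probe 122 (-0.18, adjusted p = 0.243) then lost their call, and the other 6 kept it, where 10.6% of all features were called lower and 13.2% higher.

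**Figure D3:**
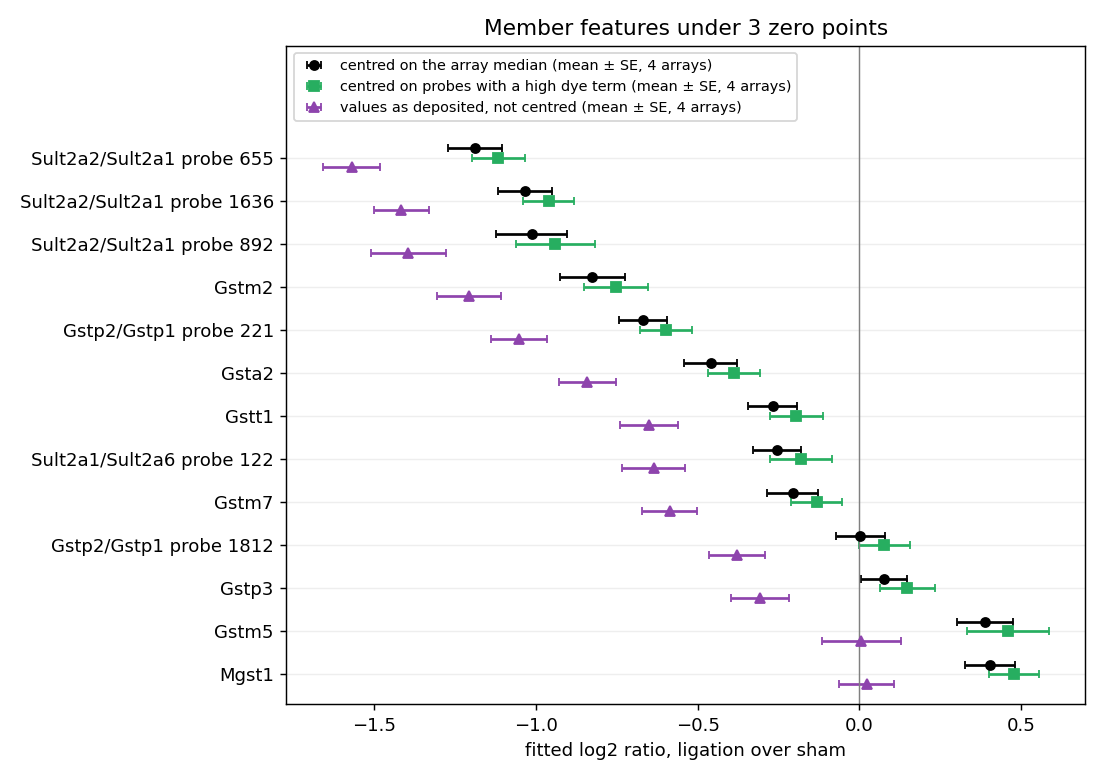
Fitted log2 ratio of ligation over sham with its SE (horizontal) for the 13 member features (rows) under 3 choices of zero. Black circles are centred on the median of the array, green squares on the probes with a high dye term and purple triangles are not centred. The 3 Sult2a2/Sult2a1 probes, Gstm2, probe 221 and Gsta2 lie below 0 under each choice, while Mgst1 and Gstm5 come to 0.02 and 0.0061 without centring.

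Of the genes that supply cofactors or carry out other conjugation, 9 of 41 listed were measured. Among them 2 were higher, 1 lower and 6 not past the test, against 12.0% higher and 16.6% lower over all features. No listed gene for UDP-glucuronate or sulfate donor supply was among those 9. Gclm, the modifier subunit of the enzyme that limits glutathione synthesis, was at 0.22 ± 0.07 (adjusted p = 0.0379) with centring and at -0.16 (adjusted p = 0.13) without it. Its arrays read 0.52, -0.17, 0.61 and -0.08 (-0.079), so its sign turned with the dye. Nqo1, a quinone reductase induced through the antioxidant response, was below 0 on every array (-0.16, -0.59, -0.37 and -0.35) and fell by 0.37 ± 0.08 (adjusted p = 0.00314). The soluble epoxide hydrolase Ephx2 was at 0.49 ± 0.08 (adjusted p = 0.000357), but at 0.11 without centring (adjusted p = 0.238). The sign of Ephx2 also turned with the dye. Gsto1, an omega-class transferase outside the naming rule, was at -0.02 (-0.022) ± 0.07 and did not pass. Read as Cy5 over Cy3, Gclm would be at 0.34, Nqo1 at 0.10, Ephx2 at 0.62 and Gsto1 at 0.60.

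Conjugates leave the hepatocyte through export pumps and bile acids enter it through uptake carriers, and 6 of 17 listed genes of both kinds were measured. Of these 3 were lower, 1 was higher and 2 did not pass, where 16.6% of all features were called lower and 12.0% higher. Abcc2, which exports glutathione and glucuronide conjugates into bile, was at 0.30 ± 0.08 (adjusted p = 0.0168), but at -0.09 without centring (adjusted p = 0.382). Abcc4, an efflux pump of the sinusoidal side, fell by 0.30 (-0.299, adjusted p = 0.0106), and Abcc1 was at 0.11 and did not pass. Abcc2 and Abcc4 were both above 0 with ligation in Cy5 and below 0 with ligation in Cy3. The other lower genes were the uptake carriers Slc10a1 (-0.76, adjusted p = 6.56e-06) and Slco2b1 (-0.57, adjusted p = 5.49e-05). The uptake carrier Slco1a4 was at -0.21 (adjusted p = 0.0532), and its sign turned with the dye like that of Abcc2 and Abcc4. Slc10a1 was below 0 on every array, and Slco2b1 on all but array 1 (0.024). Read as Cy5 over Cy3, Slc10a1 would be at 0.53, Slco2b1 at 0.54 and Abcc4 at 0.45. Slco1a4 would be at 0.34, Abcc2 at 0.69 and Abcc1 at -0.29. Of the receptors and factors known to control conjugation genes, 9 of 27 were measured, 2 higher, 3 lower and 4 not past the test. Rxra, the partner of the receptors that bind repeats of the kind printed above, gave 0.12, -1.03, -0.04 (-0.036) and -1.04, and fell by 0.50 ± 0.07 (adjusted p = 0.000196). Stat5b, which carries the growth hormone signal to liver genes, fell by 0.35 ± 0.08 (adjusted p = 0.007). It was above 0 on array 1 (0.11) and below 0 on the others. The oxysterol receptor Nr1h2 rose by 0.65 ± 0.07 (adjusted p = 2.37e-05) and was also called without centring (0.27, adjusted p = 0.0139). The bile acid receptor Nr1h4 was at -0.64 ± 0.09 and below 0 on every array. The repressor Nr0b2 was at 0.65 ± 0.09, and at 0.27 without centring (adjusted p = 0.0149). Its sign also turned with the dye (1.63, -0.13, 1.13 and -0.03 (-0.034)). Read as Cy5 over Cy3, Rxra would be at 0.54, Stat5b at 0.29 and Nr1h4 at 0.16. Nr1h2 would be at 0.77 and Nr0b2 at 0.73.

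Markers of liver cell types moved in both directions beside the members. For the counts below, 12.0% of all features were called higher and 16.6% lower. Of 5 hepatocyte markers measured (of 9 listed), 4 were higher with centring (Apoa1, Tf, Ttr and Serpina1), with a median of 0.26 over the 5 and a range from 0.10 to 0.38. Apoa1, Tf, Ttr and Apob were above 0 with ligation in Cy5 and below 0 with ligation in Cy3. Serpina1 was above 0 on every array, but close to it with ligation in Cy5 (0.0025, 0.40, 0.017 and 0.40 on arrays 1 to 4). Without centring no hepatocyte marker was called higher, and Apob was called lower (-0.28, adjusted p = 0.0492). Of 3 cholangiocyte markers (of 11) none passed, with a range from -0.02 (-0.022) to 0.14. All 3 macrophage and leukocyte markers (of 10) were lower, with Tnf at -0.57, Ccl5 at -0.33 and Cd53 at -0.27. Tnf was below 0 on every array, whereas the sign of Ccl5 turned with the dye and Cd53 was above 0 on array 1. Of 3 stellate and matrix markers (of 7) 1 was higher (Timp1 at 0.35, and at -0.03 (-0.034) without centring) and 1 lower (Col1a1 at -0.23). Of 3 endothelial markers (of 5) 1 was lower (Kdr at -0.33), and 1 blood marker (of 3) did not pass. Read as Cy5 over Cy3, Tnf would be at 0.44, Ccl5 at 0.37 and Cd53 at 0.27. Apoa1 would be at 0.80, Ttr at 0.69, Tf at 0.63, Apob at 0.54 and Serpina1 at -0.19. Kdr would be at -0.15, Col1a1 at -0.06 (-0.057) and Timp1 at -0.00049. The part of these markers in the values of the transferases was not tested.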

How the data were processed

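Per the labels, pooled liver poly(A) RNA of 3 rats per group was labelled with Cy3 or Cy5 and hybridised to a cDNA array described as holding 1800 rat genes. The authors deposited 1 ratio for each probe and array, taken here as log2, with no missing value. How arrays were scanned, background-corrected and normalized, and the base and direction of the logarithm, were not stated there. The medians of the columns were -1.26, 0.43, -0.96 and 0.26. The median over 1936 probes was subtracted from each array. Spots unnamed at the same 18 positions in all 16 print blocks (288 spots) were taken as controls and left out. Probes with 1 symbol in GEO's platform annotation were averaged per gene, and the 6 member probes with several symbols and all unnamed probes stayed separate, which gave 958 genes and 216 other probes. A ligation effect and a dye term (1 where ligation carried Cy5, -1 where Cy3) were fitted with limma 3.58.1 in R 4.3.3 (eBayes, 2 residual and 10.4 prior degrees of freedom), with Benjamini-Hochberg adjustment over all 1174 features. The fit was tested on simulated data.

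Of 12 gene numbers named by the member probes, 11 matched the RefSeq gene table of GRCr8 with the same symbol, and the number given for Gstp2 did not. Promoter sequences are RefSeq's. The array's own probe positions were not used here. Probe pairs were compared with exact sign-flip tests. All member features and probes are named, and of the gene lists those past adjusted p under 0.05 by size, with some of the others. The members and lists were chosen with earlier results of these data known. The number of arrays limits the precision.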

Additional observations from a re-analysis of the deposited data

Results flagged for a closer look

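Of the 13 member features, 1 had an array that stood apart from the other 3. Gstm5 was at 0.81 (0.806) on array 3, against 0.31 on array 1, which had the same dye order, and 0.22 and 0.21 on arrays 2 and 4. Chance would mark about 1 in 20 groups of 4 interchangeable arrays. These arrays separate by dye in most rows, so that rate need not hold here. Without array 3 the effect of Gstm5 was 0.26 (adjusted p = 0.0348).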

How the results depend on the processing

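The number of features that passed was 336 of 1174, and 10 of 13 among the members. Without centring 985 features passed (20 higher, 965 lower; 11 members), and Gstp3 (-0.31) and probe 1812 of Gstp2/Gstp1 (-0.38) turned lower. Without a dye term 0 features and 0 members passed in limma, with 74 features and 3 members at an unadjusted p under 0.05. Read as Cy5 over Cy3, 925 features (533 higher, 392 lower) and 10 members passed, and 9 members turned: probes 655, 892, 1636 and 122 of the Sult2a group were at 0.80, 0.85, 0.62 and 0.39, Gstm2 at 0.85, Gstm7 at 0.66, probe 221 at 0.59, Gsta2 at 0.38 and Gstp3 at -0.65. Mgst1 was then at 0.93, and Gstm5 (0.17) and Gstt1 (-0.07, -0.069) were not called. Leaving out 1 array at a time gave 253 to 308 features and 8 to 10 members. Quantile normalization gave 381 features and 11 members, print-block centring 319 and 9, and the median of probes 328 and 10. A robust prior gave 334 and 10, and separate probes 459 of 1648 and 10 of 14. Retained control spots gave 434 of 1462 features and 10 members. Higher calls were then 239 against 141 without these spots, and lower calls 195 in both. Centring on probes with a high dye term, added after seeing the data, gave 280 and 8, and split all calls into 155 higher and 125 lower, against 141 and 195. Natural logarithms would enlarge each value (-1.72 for probe 655) and change no call. The causes of these changes were not tested beyond the settings named. Signal over background is unknown here.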
